A study of Mus musculus with 6 samples.

Results

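Messenger RNA of 10 secreted cytokines was followed in mouse natural killer (NK) cells generated with IL-18 and in unstimulated NK cells. The genes were Csf2 (GM-CSF), Ifng (interferon gamma), Il2, Il3, Il5, Il10, Il13, Il6, Lif and Osm, taken by gene symbol from probe sets that carry exactly 1 symbol. All 10 were measured, each by 1 probe set, among 19943 genes on the arrays. The study holds 6 Affymetrix arrays from preparations that the submitters call independent, and each of the 2 groups has 3. IL-18 generated cells had been isolated on NK1.1, kept overnight with IL-18 at 25 ng/ml and IL-2 at 300 IU, and sorted live. Their gate took cells with c-kit and without CD11b. Unstimulated cells were sorted live by the opposite gate, with CD11b and without c-kit, and both gates asked for NK1.1 and against CD3. The labels leave out if the unstimulated cells were cultured or met IL-2, and the strain, age and sex of the mice are not given there. Stimulus, culture and gate therefore cannot be told apart in any difference below.

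NK cells are lymphocytes of the innate immune system, which kill target cells and release cytokines. IL-18 is a cytokine of the IL-1 family that signals through MyD88 and, together with other cytokines, is known as an inducer of interferon gamma in NK cells. Interferon gamma activates macrophages, and GM-CSF acts on myeloid cells. IL-2, IL-3, IL-5 and IL-13 are best known from T cells and other lymphoid or mast cell sources. IL-6, LIF and oncostatin M share the receptor chain gp130, and IL-10 restrains inflammation.

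Kit and Itgam, the genes of the gate markers that differed, followed their gates. The log2 change (IL18 minus unstimulated) was 2.79 for Kit, which encodes c-kit, and -5.32 for Itgam, which encodes CD11b. All 9 measured NK markers fell (limma adjusted p below 0.05), where 16.7% of all genes did. Among these markers was Klrb1c, the gene of NK1.1, at -2.03, although both gates asked for NK1.1. Values are log2 expression relative to the median of each probe set over the 6 arrays, so they show differences but no level, and a gene near 0 may be undetected in both groups. That centring makes the middle pair of the 6 values of a probe set mirror each other. Where the groups do not overlap, this pair is the nearest IL18 and unstimulated value. A fall in a transcript cannot be told apart from fewer cells of a type that makes it. The p-values measure the spread between these 6 arrays alone, whose number limits the precision.

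Sequence around the annotated start is shown for the 4 genes with the largest rises and for Il3, the neighbour of Csf2 that did not pass the test. Windows run from 250 bases before to 50 after the start, on the gene's own strand (RefSeq, GRCm38.p6), and 8 of the 10 genes were matched to the table. They are Csf2 at chr11:54249850-54250149 (minus strand), Ifng at chr10:118440796-118441095 (plus), Il6 at chr5:30012864-30013163 (plus), Lif at chr11:4257318-4257617 (plus) and Il3 at chr11:54267230-54267529 (minus). Each gene has 1 start in this table, and other starts of the same gene may lie elsewhere. Capitals mark matches on either strand to the NFAT core GGAAA, the AP-1 site TGANTCA, the NF-kB site, the STAT site TTCNNNGAA and the TATA box TATAAA.
Csf2: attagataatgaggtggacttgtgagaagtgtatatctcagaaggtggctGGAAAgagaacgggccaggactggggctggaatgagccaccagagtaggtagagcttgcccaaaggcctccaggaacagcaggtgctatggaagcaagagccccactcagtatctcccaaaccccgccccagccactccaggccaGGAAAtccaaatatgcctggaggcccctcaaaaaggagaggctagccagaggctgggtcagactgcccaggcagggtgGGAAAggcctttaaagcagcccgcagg
Ifng: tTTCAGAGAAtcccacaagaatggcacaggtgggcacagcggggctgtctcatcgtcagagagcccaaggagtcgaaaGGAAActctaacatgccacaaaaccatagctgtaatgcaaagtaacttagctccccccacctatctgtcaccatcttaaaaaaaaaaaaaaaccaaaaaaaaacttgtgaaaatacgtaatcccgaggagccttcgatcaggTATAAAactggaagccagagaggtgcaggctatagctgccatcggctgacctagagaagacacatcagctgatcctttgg
Il6: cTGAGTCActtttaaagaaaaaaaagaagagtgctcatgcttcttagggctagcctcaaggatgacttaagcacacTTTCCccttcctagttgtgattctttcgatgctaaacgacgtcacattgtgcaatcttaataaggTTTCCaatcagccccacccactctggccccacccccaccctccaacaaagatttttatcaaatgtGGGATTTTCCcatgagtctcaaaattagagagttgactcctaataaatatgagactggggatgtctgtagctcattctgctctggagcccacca
Lif: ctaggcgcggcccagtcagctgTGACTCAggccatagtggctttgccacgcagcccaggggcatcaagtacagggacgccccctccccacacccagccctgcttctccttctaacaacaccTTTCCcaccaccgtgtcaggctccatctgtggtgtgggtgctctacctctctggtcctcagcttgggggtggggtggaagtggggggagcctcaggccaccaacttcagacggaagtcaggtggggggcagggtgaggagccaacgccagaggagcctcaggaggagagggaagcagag
Il3: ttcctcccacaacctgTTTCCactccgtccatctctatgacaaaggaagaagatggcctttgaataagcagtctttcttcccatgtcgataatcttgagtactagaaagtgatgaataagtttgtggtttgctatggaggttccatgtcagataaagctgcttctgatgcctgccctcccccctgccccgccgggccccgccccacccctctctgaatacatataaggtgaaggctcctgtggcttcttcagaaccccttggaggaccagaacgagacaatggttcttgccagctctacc

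The Il6 window held the NF-kB letters, beginning 44 bases before the start, and an AP-1 match beginning 249 bases before it. The Lif window held an AP-1 match 228 bases before the start. In the Ifng window a TATA box began 30 bases before the start and a STAT match 249 bases before it. GGAAA was present in all 8 windows, and also in 61.3% of all 32851 promoter windows, so that its presence sets no gene apart. The other motifs were found in 7.81% (AP-1), 4.51% (NF-kB), 8.30% (STAT) and 13.6% (TATA box) of all windows. These matches are descriptions of letters, and nothing follows from the absence of one.

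The comparison asks which cytokine transcripts set IL-18 generated NK cells apart from unstimulated ones. Of the 10 cytokine genes, 5 rose (Csf2, Ifng, Il6, Lif and Il13), 0 fell and 5 did not pass (Osm, Il2, Il5, Il3 and Il10), at a limma p adjusted over all genes below 0.05. Over all 19943 genes the same rule called 36.4%, with 19.7% higher and 16.7% lower. By a rise of at least 1 on the log2 scale besides, 3 of the 10 passed (Csf2, Ifng and Il6), where 3.62% of all genes did. The IL18 values lay all above the unstimulated values for 5 of the 10, where 22.9% of all genes did so, and all below for 1 of them, where 25.7% did. With so many genes changed, calls in several of the 10 are read only against that background. The median change of the 10 was 0.25, beside -0.064 over all genes. The panel of values by array shows 4 genes standing well apart and 6 gathered around 0.

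**Figure D1:**
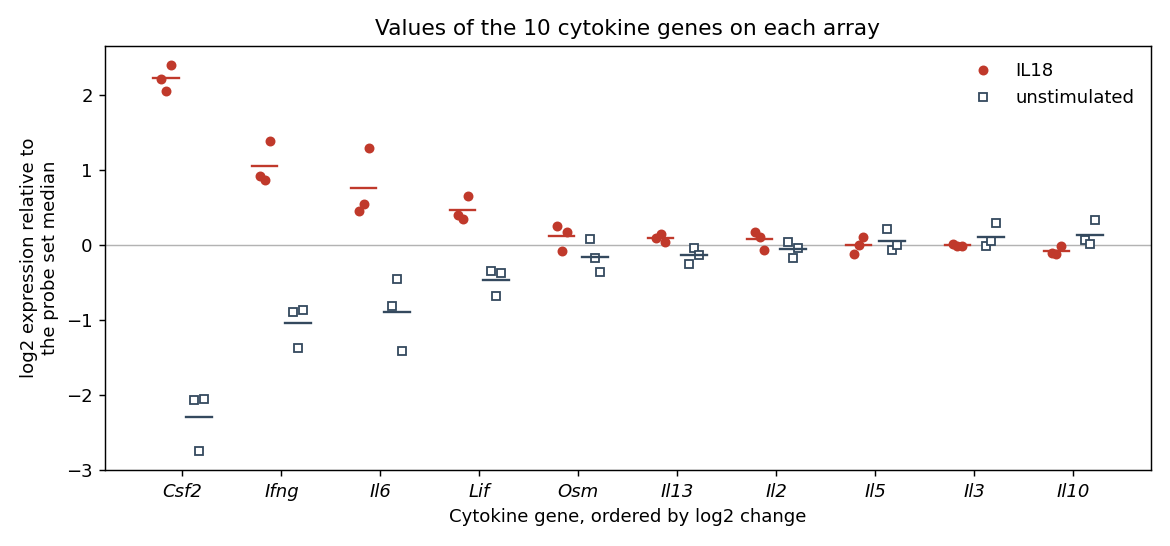
Log2 expression of the 10 cytokine genes relative to the median of each probe set (vertical axis), with genes on the horizontal axis ordered by their change, IL18 arrays as red circles, unstimulated arrays as open squares and group means as bars (n = 3 each). Csf2, Ifng, Il6 and Lif separate by gaps of 4.10, 1.72, 0.91 and 0.70 between the nearest IL18 and unstimulated arrays, and the other genes lie within 0.37 of 0.

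Csf2 encodes GM-CSF, a growth factor for granulocytes and macrophages, and had the largest rise of the 10. Its values were 2.22, 2.05 and 2.40 on the IL18 arrays, against -2.07, -2.74 and -2.05 on the unstimulated arrays. The groups lay far apart, and the lowest value was that of unstimulated replicate 2. The mean was 2.22 ± 0.17 in IL-18 generated cells and -2.29 ± 0.40 in unstimulated cells (SD, n = 3 each). The change was 4.51 ± 0.17 (log2 change ± SE), or 22.8-fold, with a limma adjusted p of 4.05e-08. Only 4 of the 19943 genes rose more, since Csf2 ranked 5 by log2 change.

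Ifng encodes interferon gamma, the signature cytokine of NK cells. It stood at 0.92, 0.86 and 1.38 on the IL18 arrays, against -0.89, -1.37 and -0.86 on the unstimulated arrays. The groups did not overlap, with IL18 replicate 3 highest and unstimulated replicate 2 lowest. Its SD was 0.29 in both groups. The change of 2.10 ± 0.16, or 4.28-fold, had a limma adjusted p of 3.59e-06 and ranked 88 among all genes. The 95% interval, 1.74 to 2.46, lies below that of Csf2, 4.13 to 4.89, although a difference between the changes of 2 probe sets was not tested.

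Il6, Lif and Osm encode the cytokines that signal through gp130. Il6 had values of 0.45, 0.55 and 1.29 on the IL18 arrays, against -0.81, -0.45 and -1.41 on the unstimulated arrays. IL18 replicate 3 stood high and unstimulated replicate 3 low, while the groups did not overlap. The change was 1.66 ± 0.25, or 3.15-fold (limma adjusted p 0.000399). Its residual SD of 0.47 exceeded that of 99.6% of genes, whose median was 0.105. The 95% interval of the change was the widest of the 10.

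Lif, leukemia inhibitory factor, was measured at 0.40, 0.35 and 0.66 on the IL18 arrays, against -0.35, -0.68 and -0.37 on the unstimulated arrays. No values overlapped, and the gap between groups was more than the range within either. The change was 0.94 ± 0.11, or 1.92-fold (limma adjusted p 7.66e-05). Osm, oncostatin M, showed 0.25, -0.08 and 0.18 on the IL18 arrays, against 0.08, -0.18 and -0.37 on the unstimulated arrays. These groups overlapped, and the change of 0.27 ± 0.12 did not pass (limma adjusted p 0.112, 95% interval -0.00061 to 0.55). Leaving out unstimulated replicate 1 brought Osm past the threshold, at 0.39 with a limma adjusted p of 0.0344.

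Il13, Il5 and Il3 encode type 2 and mast cell cytokines. Il13 had 0.09, 0.15 and 0.04 on the IL18 arrays, against -0.25, -0.04 and -0.13 on the unstimulated arrays, so that the groups stood apart by a gap of only 0.07. Its rise, 0.23 ± 0.08 or 1.17-fold, passed narrowly with a limma adjusted p of 0.0471. The call ended in 5 of the 6 fits that left out 1 array, where the limma adjusted p ran from 0.0204 to 0.158 over the 6. Il13 passed when unstimulated replicate 2 was left out and failed when any other array was. Calls over all genes moved likewise. Without that array 4178 were higher and 4408 lower, against 3935 and 3332 with all 6 arrays, and both counts dropped without any other array.

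Il5, the eosinophil growth factor, was -0.12, -0.00028 and 0.11 on the IL18 arrays, against 0.21, -0.07 and 0.00028 on the unstimulated arrays. The groups overlapped throughout and the change was -0.05 ± 0.10 (limma adjusted p 0.717). Il3, a growth factor of mast cells and basophils, was 0.013, -0.014 and -0.013 on the IL18 arrays, against -0.017, 0.056 and 0.29 on the unstimulated arrays. Unstimulated replicate 3 alone stood high, and the change of -0.12 ± 0.09 did not pass (limma adjusted p 0.351, 95% interval -0.32 to 0.09). Without that array the change was -0.024.

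Il2, the T cell growth factor that was also added to the medium as protein, was 0.18, 0.11 and -0.06 on the IL18 arrays, against 0.04, -0.17 and -0.04 on the unstimulated arrays. The groups overlapped. Its change was 0.13 ± 0.09 (limma adjusted p 0.277, 95% interval -0.07 to 0.34). Il10, the anti-inflammatory cytokine, was -0.11, -0.12 and -0.012 on the IL18 arrays, against 0.07, 0.012 and 0.34 on the unstimulated arrays. The groups were separated by only 0.025, and unstimulated replicate 3 stood high. The change of -0.22 ± 0.10 did not pass (limma adjusted p 0.102, 95% interval -0.43 to -0.0061). Across the 5 genes that did not pass, no bound of a 95% interval lay farther from 0 than 0.55.

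**Figure D2:**
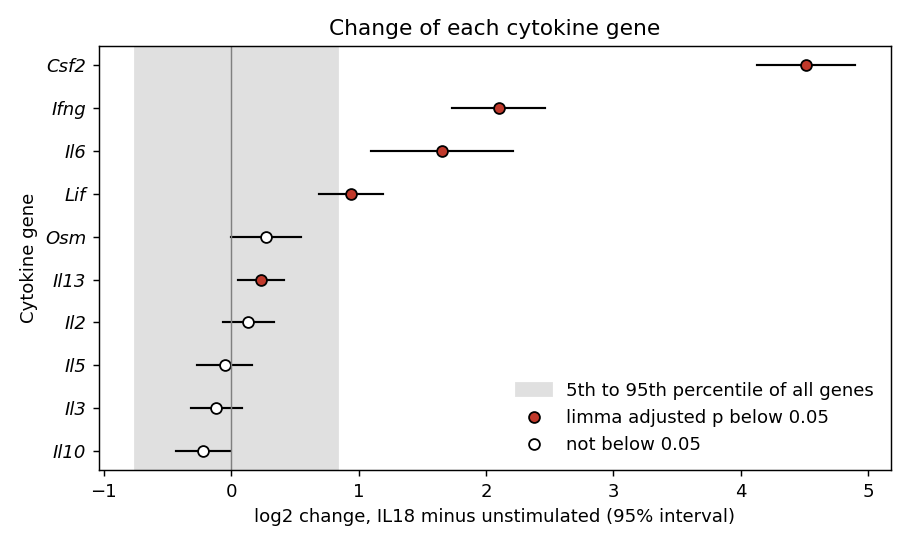
Log2 change of each cytokine gene (IL18 minus unstimulated, horizontal axis) with its 95% interval from limma, genes down the page from the largest rise. Filled points have a limma adjusted p below 0.05. The grey band spans the 5th to 95th percentile of all genes, -0.76 to 0.84, beyond which lie Csf2, Ifng, Il6 and Lif.

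The arrays of a group did not contribute evenly. Among the 5 genes that rose, IL18 replicate 3 was the highest IL18 array for 4 (Csf2, Ifng, Il6 and Lif), and unstimulated replicate 2 was the lowest unstimulated array for 3 (Csf2, Ifng and Lif). Csf2, Ifng, Il6 and Lif kept their direction and their call without each of the 6 arrays in turn. The deposited digits also bear on levels. On all arrays the values of Ifng and Osm fell on the rounding steps that single-precision numbers have from 8 to 16, as did those of 30.7% of all probe sets. The other 8 genes needed the finer steps of numbers from 4, so at least 1 array of each lay below 8 on the scale before centring, if that scale was single-precision log2 intensity.

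The nearest protein-coding genes on the chromosome were followed as well. Csf2 and Il3 lie side by side on chromosome 11, and while Csf2 rose by 4.51, Il3 changed by -0.12 and did not pass. Of the 2 nearest protein-coding genes on each side of this pair, P4ha2, a collagen prolyl hydroxylase gene, changed by 0.37 ± 0.13 (limma adjusted p 0.0526), Pdlim4 by -0.02, Acsl6, a fatty acid activating enzyme gene, by -0.11 and Meikin by -0.07. None of these 4 passed. In the type 2 cytokine cluster of the same chromosome, Il4 fell with -0.29 ± 0.08 (limma adjusted p 0.0119) beside Il13, which rose by 0.23, and Il5, which did not pass. Between and beside them, the DNA repair gene Rad50 changed by 0.26 ± 0.11 without passing (limma adjusted p 0.0928), and the transcription factor gene Irf1 fell with -0.92 ± 0.09.

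Osm and Lif, also neighbours on chromosome 11, had changes of 0.27 and 0.94, beside a fall of Castor1, an arginine sensor of the mTORC1 pathway, with -0.58 ± 0.11. Next to Ifng on chromosome 10, Iltifb rose by 1.45 ± 0.19 (limma adjusted p 0.000147). Iltifb is a near-identical copy of the IL-22 gene, so its value is uncertain, and Il22 itself was not analysed here. The kinase gene Dyrk2, on the other side of Ifng, fell with -0.75 ± 0.10. Il21, next to Il2, changed by 0.04 ± 0.08 and did not pass, whereas Tyms, the thymidylate synthase gene next to Il6, rose by 0.95 ± 0.11. Of 28 measured neighbours that are none of the 10 cytokines, 6 rose, 5 fell and 17 did not pass. These counts are near the shares over all genes, 19.7% higher and 16.7% lower.

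**Figure D3:**
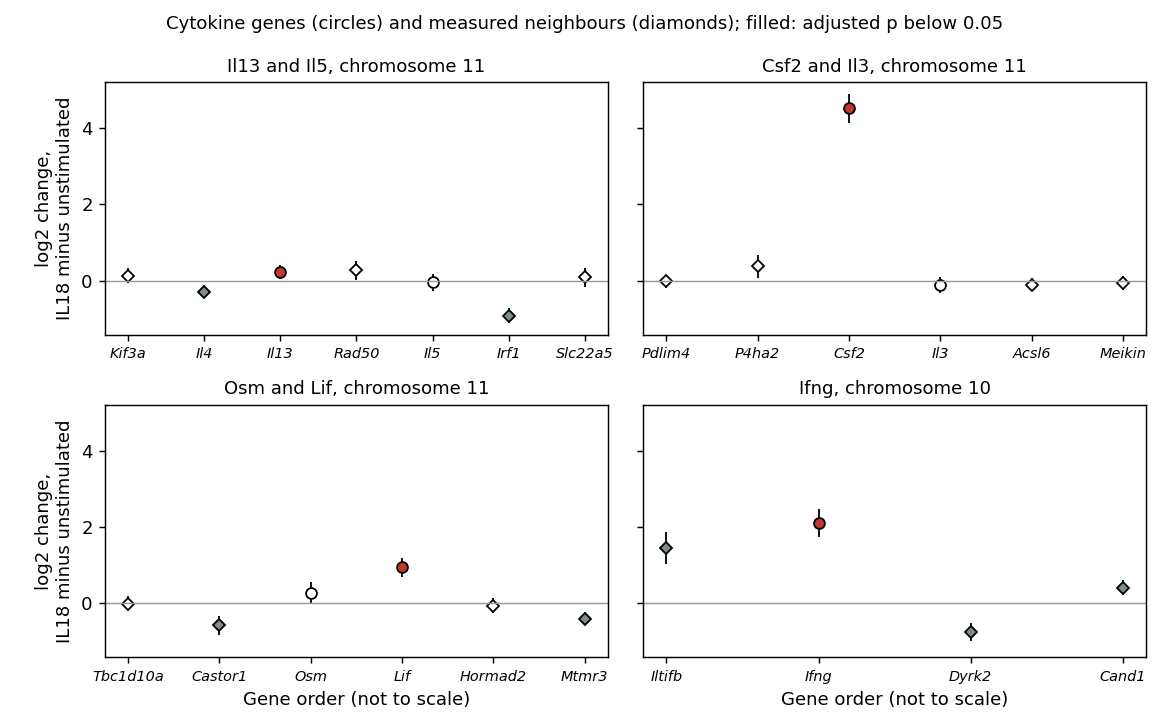
Log2 change (IL18 minus unstimulated, vertical axis) with 95% intervals for cytokine genes (circles) and their measured protein-coding neighbours (diamonds) in gene order, with distances not to scale and filled symbols for a limma adjusted p below 0.05. Csf2 stands at 4.51 between neighbours that did not pass, while Ifng at 2.10 lies next to Iltifb at 1.45.

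Receptor chains decide which cells can answer the 10 cytokines. Of 18 measured chains, 2 rose and 11 fell, the other 5 not passing, where 19.7% of all genes were higher and 16.7% lower. The median change of the chains was -0.50, beside -0.064 over all genes. Il2ra, whose product raises the affinity of the IL-2 receptor, stood at 2.69, 2.56 and 2.64 on the IL18 arrays, against -2.56, -2.95 and -2.57 on the unstimulated arrays. It separated the groups more widely than Csf2. Il4ra, a chain shared by the receptors of IL-4 and IL-13, rose by 0.55 ± 0.13. Csf2rb, the beta chain through which GM-CSF, IL-3 and IL-5 signal, was -2.38, -1.15 and -2.35 on the IL18 arrays, against 1.72, 1.77 and 1.15 on the unstimulated arrays. IL18 replicate 2 and unstimulated replicate 3 lay closest to each other, and the fall was -3.51 ± 0.29 (limma adjusted p 5.90e-06).

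The same 2 arrays were also the nearest ones for Csf2 (2.05 against -2.05) and Ifng (0.86 against -0.86), so this closeness was not particular to Csf2rb. They were the nearest for the basophil and mast cell markers too. The means of that list were -1.39, -0.40 and -1.38 on the IL18 arrays, against 1.14, 1.36 and 0.38 on the unstimulated arrays. Csf2rb2, a mouse beta chain specific to IL-3, fell with -2.85 ± 0.42. It is a close relative of Csf2rb and the probes of one may read the other, so the separate values are uncertain. Il13ra1, a chain of the IL-13 receptor, fell with -3.05 ± 0.18 and Ifngr2, the second chain of the interferon gamma receptor, with -3.04 ± 0.16. The GM-CSF receptor alpha chain Csf2ra fell with -1.27 ± 0.13 and the IL-6 receptor chain Il6ra with -2.13 ± 0.19. Csf2rb2, Csf2ra and Il6ra were singled out after their values were seen. Myeloid cells express several of these chains, and the part of such cells in the falls was not tested.

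Of 38 other secreted cytokines measured, 6 rose and 11 fell, the other 21 not passing. Over all genes 19.7% were higher and 16.7% lower. The median change of the 38 was -0.11. Tnf and Lta, the genes of tumour necrosis factor and lymphotoxin alpha, rose by 3.04 ± 0.18 and 2.98 ± 0.17. Tnf stood at 1.59, 1.26 and 1.64 on the IL18 arrays, against -1.35, -1.995 and -1.26 on the unstimulated arrays. Ltb, lymphotoxin beta, rose by 1.69 ± 0.18. The macrophage growth factor gene Csf1 fell with -1.82 ± 0.20, Il1b with -1.76 ± 0.17 and Il15, which sustains NK cells, with -1.56 ± 0.12. Monocyte markers, also genes of cells that make Il1b and Il15, fell on the same arrays, and their part was not tested.

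Among 31 measured transcription factors known to act on cytokine genes, 5 rose and 15 fell, the other 11 not passing. The shares over all genes were 19.7% higher and 16.7% lower. The median change of the 31 was -0.37. The AP-1 family gene Batf rose by 1.13 ± 0.08, Bhlhe40 by 0.96 ± 0.08 and Stat5a, which signals for IL-2 and GM-CSF receptors, by 0.83 ± 0.08. The AP-1 gene Fos fell with -2.29 ± 0.51, the repressor gene Prdm1 with -2.15 ± 0.10 and Tbx21 with -1.99 ± 0.10. Fos was uneven, at -0.24, -0.65 and -0.55 on the IL18 arrays, against 2.75, 0.24 and 2.44 on the unstimulated arrays. Tbx21 encodes T-bet, an activator of Ifng, and was -1.06, -1.10 and -0.87 on the IL18 arrays, against 0.91, 1.14 and 0.87 on the unstimulated arrays. Ifng and Tbx21 moved in opposite directions, with no overlap of the groups in either gene. Tbx21 was also among the NK markers that fell, and a link between the changes of Ifng and Tbx21 was not tested.

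Of 16 factors that act on the decay or stability of cytokine transcripts, 10 rose and 4 fell, the other 2 not passing. Beside them, 19.7% of all genes were higher and 16.7% lower. The median change of the 16 was 0.38. Zc3h12a, which encodes the RNase Regnase-1 that cleaves Il6 mRNA, was 0.81, 0.99 and 0.85 on the IL18 arrays, against -0.96, -0.81 and -0.88 on the unstimulated arrays. It rose by 1.76 ± 0.08, in the same direction as Il6. Its relative Zc3h12d rose by 0.85 ± 0.11 and the RNA-binding protein gene Hnrnpd by 0.84 ± 0.10. Zfp36 encodes tristetraprolin, which speeds the decay of AU-rich transcripts such as Csf2 and Tnf. It was -0.94, -0.98 and -0.80 on the IL18 arrays, against 1.59, 0.80 and 1.43 on the unstimulated arrays. The fall was -2.18 ± 0.17, and its relative Zfp36l2 fell with -0.89 ± 0.09 and the Regnase-like RNase gene N4bp1 with -0.68 ± 0.09. The part of these factors in the changes of Il6, Csf2 and Tnf was not tested.

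**Figure D4:**
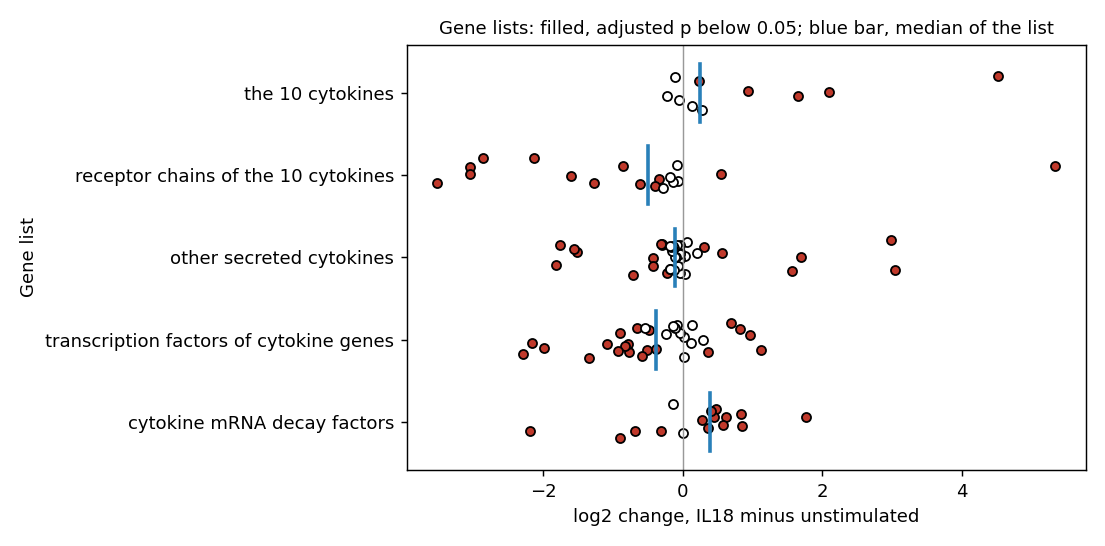
Log2 change (IL18 minus unstimulated, horizontal axis) of the 10 cytokines and of the genes of 4 related lists, one point a gene, filled where the limma adjusted p was below 0.05, with the median of each list as a blue bar and vertical scatter only for legibility. Medians are 0.25 for the 10 cytokines, -0.50 for receptor chains, -0.11 for other cytokines, -0.37 for transcription factors and 0.38 for decay factors.

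The genes most like the 3 largest risers were taken by the smallest root mean square difference of values over the 6 arrays, which mainly reflects the size of the change. For Csf2 they were the semaphorin gene Sema6d at a difference of 0.23, Asb2 at 0.24 and the asparagine synthetase gene Asns at 0.26. For Ifng they were the sterol synthesis gene Cyp51 at 0.16, Tlcd1 at 0.16 and the small GTPase gene Rab39b at 0.18. The genes nearest Il6 were Neto2 at 0.22, the ribosomal RNA methyltransferase gene Dimt1 at 0.23 and the replication fork gene Tipin at 0.25.

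Markers of other cells that can make these cytokines were followed on the same arrays, where 19.7% of all genes were higher and 16.7% lower. Of 14 basophil and mast cell markers, 1 rose, 9 fell and 4 did not pass, with Cpa3, a mast cell and basophil protease gene, at -4.26 ± 0.75. Of 10 monocyte markers all 10 fell, with list means from -1.71 to -1.55 on the IL18 arrays and from 1.48 to 2.07 on the unstimulated arrays. All 11 neutrophil markers fell, with list means from -1.20 to -0.96 on the IL18 arrays and from 1.09 to 2.32 on the unstimulated arrays, and 6 of 7 dendritic cell markers fell while 1 rose. B cell markers comprised 5 that fell and 2 that did not pass out of 7. Most of these markers were lower on the IL18 arrays, as were all 9 NK cell markers. The part of these cells in the rises of Csf2, Ifng, Il6, Lif and Il13 was not tested. Il4, a basophil product, fell on the IL18 arrays (limma adjusted p 0.0119). Il10 had lower values there but did not pass (limma adjusted p 0.102). The basophil and monocyte lists were lower as well, and the part of such cells was not tested.

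T cells and type 2 innate lymphoid cells (ILC2) are also known sources of several of the 10. Of 12 T cell markers, 4 rose, 1 fell and 7 did not pass, with list means from 0.05 to 0.31 on the IL18 arrays and from -0.20 to 0.003 on the unstimulated arrays. Those that rose were Cd3g by 1.60 ± 0.20, Cd3e by 1.26 ± 0.21, Trat1 by 1.16 ± 0.14 and Cd3d, singled out after its value was seen, by 1.11 ± 0.14. The transcription factor gene Lef1 fell with -1.50 ± 0.12. The median change of the 12 T cell markers was 0.0018, beside -0.064 over all genes, where 19.7% were higher and 16.7% lower. Trat1 and these CD3 chain genes moved in the direction of Csf2 and Ifng, but most of the list did not pass. The CD3 chain genes differed although both gates asked against CD3, and the part of T cells was not tested. Of 7 measured ILC2 markers 1 rose (Rora, by 2.57 ± 0.09), 2 fell (Hes1 with -1.52 ± 0.13 and Il17rb with -0.33 ± 0.11) and 4 did not pass. Il1rl1 and Areg, also on the ILC2 list, were not matched to a measured gene. No marker can be said to be absent, since the values hold no level.

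**Figure D5:**
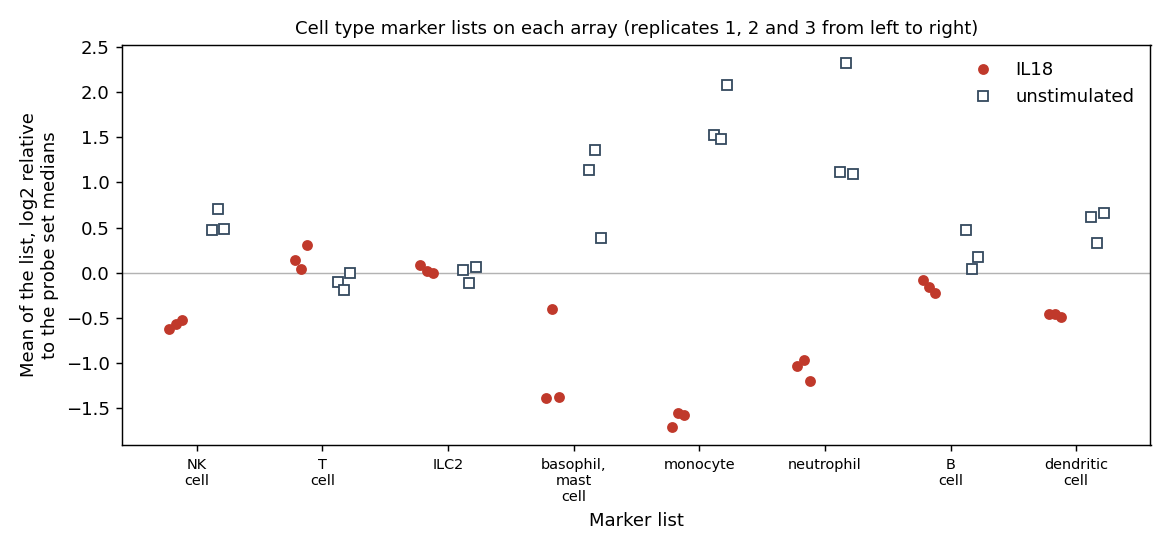
Mean of each cell type marker list (log2 relative to the probe set medians, vertical axis) on each array, with IL18 arrays as red circles and unstimulated arrays as open squares, replicates 1, 2 and 3 from left to right. The IL18 arrays lie below the unstimulated ones for the NK cell, basophil and mast cell, monocyte, neutrophil, B cell and dendritic cell lists. Basophil and mast cell means are -1.39, -0.40 and -1.38 against 1.14, 1.36 and 0.38. For T cell markers the IL18 arrays lie above, and for ILC2 markers the groups overlap.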

How the data were processed

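Total RNA of sorted mouse NK cells was hybridised to 1-colour Affymetrix arrays after biotin labelling with a whole-transcript kit, per the labels' protocols. The authors deposited processed values, treated here as log2, relative to the median of each probe set over the 6 arrays. Scale and centring were read from the values. How they were summarized and normalized is not given in the sources used.

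Of 28815 probe sets, 21788 had 1 gene symbol in the platform annotation, 1597 had several and 5430 were unlisted. Probe sets with 1 symbol were averaged into 19943 genes. Groups were compared with limma 3.58.1 (lmFit and eBayes, no covariate) in R 4.3.3, with Benjamini-Hochberg adjustment over all genes and calls at 0.05. Intervals are limma's 95% intervals. Tables and figures used Python 3.11.15, pandas 2.3.3, numpy 2.4.6 and matplotlib 3.10.9.

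The cytokine genes and lists were chosen with earlier results of these data known. Named genes are the 10 cytokines, up to 3 largest rises and falls per list, up to 2 protein-coding neighbours on each side, the 3 nearest patterns, and the sort genes; exceptions are marked. Symbols came from the platform annotation, and 0 differed from the reference gene table. Single-precision steps were matched within 0.2 of a step. Alternatives were quantile normalization, centring, robust variances, array weights, all probe sets as features, genes with 1 probe set, limma's treat, a replicate block and leaving out each array.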

Additional observations from a re-analysis of the deposited data

How the results depend on the processing

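Csf2, Ifng, Il6 and Lif kept their direction and stayed past the threshold under all 13 alternatives, Csf2 between 4.28 and 5.70, Ifng between 1.93 and 2.41, Il6 between 1.39 and 1.87 and Lif between 0.83 and 1.00. Il13 lost its call with the replicate block (0.23, limma adjusted p 0.0578), and its change ran from 0.18 to 0.28 when each array was left out. Il10 passed with array weights (at -0.27, adjusted p 0.0366 from limma) and without unstimulated replicate 2 (limma adjusted p 0.0428), where 1 of the 10 genes counted as lower, against 0 otherwise. Both fits also called more of all genes, 4143 higher and 4048 lower with array weights and 4178 and 4408 without that array, against 3935 and 3332. The change of Il10 ran from -0.28 to -0.12 on leaving out each array, with a limma adjusted p from 0.0366 to 0.337 over all alternatives. Osm ran from 0.17 to 0.39 on leaving out each array, and Il5 from -0.11 to 0.03, turning positive without IL18 replicate 1 (0.0077) or unstimulated replicate 1 (0.033). Il2 ran from 0.077 to 0.20 and Il3 from -0.18 to -0.024, and neither passed in any of these 6 fits. The cause was not tested in any of these. The count of genes that rose ran from 4 to 5, and limma's treat against a change of 1 called 2 of the 3 genes past that size. Replicate numbers are shared between groups, but deviations of same-numbered arrays correlated at only 0.24, 0.0074 and -0.020, so the numbers were not taken to pair the arrays, and not every array correlated best with its own number. The block moved the count of genes that rose to 4 and changed no other call among the 10. With no detection calls or levels, signal over background could not be judged.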
